A study of Mus musculus with 15 samples.

Results

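Amino acid transporters are the membrane proteins through which cells take up and exchange amino acids. The 10 transporter genes described here were chosen by symbol, Slc7a3, Slc7a5, Slc7a11, Slc3a2, Slc38a2, Slc1a4, Slc1a5, Slc6a9, Slc43a1 and Slc43a3. All 10 were measured, among 18193 genes in all. The 15 samples are Affymetrix mouse expression arrays of mammospheres, that is, mammary cells grown as floating spheres. The cells were single-cell suspensions of primary mammary tumours from FVB/N mice of genotype WAPCre-DNbcatn;HGF. By general knowledge, the WAP promoter drives Cre in milk-producing mammary cells and HGF is the ligand of the MET receptor. Every group, the DMSO controls included, carries that genotype. Treatment lasted 24 h and followed 7 days of sphere growth, and 250 ng of RNA went onto each array. A first set of 9 arrays, whose titles carry the code JAH, holds 3 PHA, 3 ICG and 3 DMSO arrays, and a second set of 6, with the code JHO, holds 3 PHA+ICG and 3 DMSO arrays. The study speaks of MET and Wnt pathway inhibitors against a DMSO vehicle. By general knowledge PHA is a MET kinase inhibitor and ICG blocks β-catenin-driven transcription, and the labels used here give no full names or doses. Separate cultures or animals behind the replicates are not named in the labels, so p-values cover the spread of these arrays alone, and that spread may be technical.

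Most plasma membrane amino acid transporters are either exchangers, which trade one amino acid for another, or accumulative carriers that use the sodium gradient. SLC3A2 is a heavy chain that brings several SLC7 light chains to the cell surface, among them the leucine transporter SLC7A5 and the cystine-glutamate exchanger SLC7A11. When amino acids run short or the endoplasmic reticulum is stressed, phosphorylation of eIF2α favours translation of ATF4, a transcription factor that is known to induce many of these transporters together with amino acid synthesis genes. ATF4 binds composite sites that combine a C/EBP and an ATF element.

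The promoter of Slc7a11 is shown because it is the only one of the members' promoter windows that held the ATF4 composite letters. Promoter sequences came from the RefSeq table of build GRCm38.p6, and 6 of the 10 genes had an entry, with 8 windows in all. Slc7a3, Slc7a5, Slc1a5 and Slc43a3 had no entry, so their promoters were not searched. Of each window the 250 bases before the gene start were searched, on both strands, for TGATGNAA. The Slc7a11 stretch lies at chr3:50443633-50443699 on the minus strand and reads 5′ to 3′ towards the gene. The capitals mark 2 matches, in opposite orientation, which begin 66 and 47 bases before the start. The windows of Asns and Chac1, a pair of genes widely used as readouts of ATF4, are set beside it, at chr6:7693210-7693252 on the minus strand and chr2:119351029-119351076 on the plus strand.
Slc7a11: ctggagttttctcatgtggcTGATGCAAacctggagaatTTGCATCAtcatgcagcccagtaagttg
Asns: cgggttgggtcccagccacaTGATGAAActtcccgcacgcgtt
Chac1: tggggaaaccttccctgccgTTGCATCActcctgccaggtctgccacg
Of all 32851 promoter windows in the table, 3.45% held at least 1 match, and of the 27025 genes with a window 3.91% did. Of 30 amino acid sensing and ATF4 genes with a window, taken up below, 4 held a match (Asns, Chac1, Atf3 and Nupr1). Of 41 other amino acid transporter genes with a window, 1 did (Slc7a7). The 9-letter antioxidant response element TGACNNNGC occurred in 4 of the 8 windows (2 of Slc6a9, and those of Slc38a2 and Slc43a1) and in 10.2% of all windows. The E-box CACGTG occurred in that of Slc43a1 alone and in 6.02% of all windows. These matches are letters in a window, not shown to be bound.

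Values are log2 signals as deposited, fold changes are log2 differences between group means of 3 arrays each, and the error of a fold change is the SE of the limma fit of its own set. A gene is called where the Benjamini-Hochberg adjusted p over all 18193 genes is under 0.05. For the members' other probe sets, the SE and adjusted p come from a fit of all 34945 probe sets with 1 symbol. The members were proposed with results of these data known, including the ICG values of Slc7a3 and Slc7a5. Their ICG values are therefore given as a description without p-values, and no count of members called is read as support. Adjusted p-values printed for members with PHA or PHA+ICG are likewise descriptions, since the genes were not chosen independently of these data. With 3 arrays in a group, array number limits the precision, and the files hold no detection calls. The second set spread 2.22 times as much between replicates as the first (median gene SD of 0.236 and 0.107). In the second set arrays of the same number deviated from their group means together (correlations of 0.61, 0.36 and 0.28). Arrays 2 and 3 also did so across numbers (0.35 and 0.24), so matching by number is not settled for them. The labels name no pairs, and the fit with pairs is an alternative, given where it changes a call. The arrays numbered 1 of that set stood apart in cell markers. Their summed linear leukocyte signal was 32673 with PHA+ICG and 43303 in DMSO, while the other arrays had 8649 and 8728 with PHA+ICG and 11365 and 11402 in DMSO. The luminal sum was 6275 on array 1 of PHA+ICG, against 2651 and 2582 on the other treated arrays. In DMSO it was 6564, 5399 and 5702, so here treated arrays 2 and 3 were the ones apart from the controls. Because of the leukocyte signal, results of the second set are also given without both arrays numbered 1, an alternative added after the data were seen. That alternative keeps the treated arrays of low luminal sum. The luminal keratin gene Krt18 averaged 9.60 with PHA, 9.33 with ICG and 9.53 in DMSO of the first set, and 9.39 with PHA+ICG and 10.28 in DMSO of the second. The spheres thus carry a mammary epithelial marker, but the fibroblast gene Col1a2 (12.25 with PHA, 11.46 with ICG and 12.62 in DMSO of the first set) and the leukocyte gene Tyrobp (12.95, 12.88 and 13.15 in the same order) were read as well. The samples are bulk RNA, in which fewer cells of a type and less RNA per cell cannot be told apart.

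**Figure D1:**
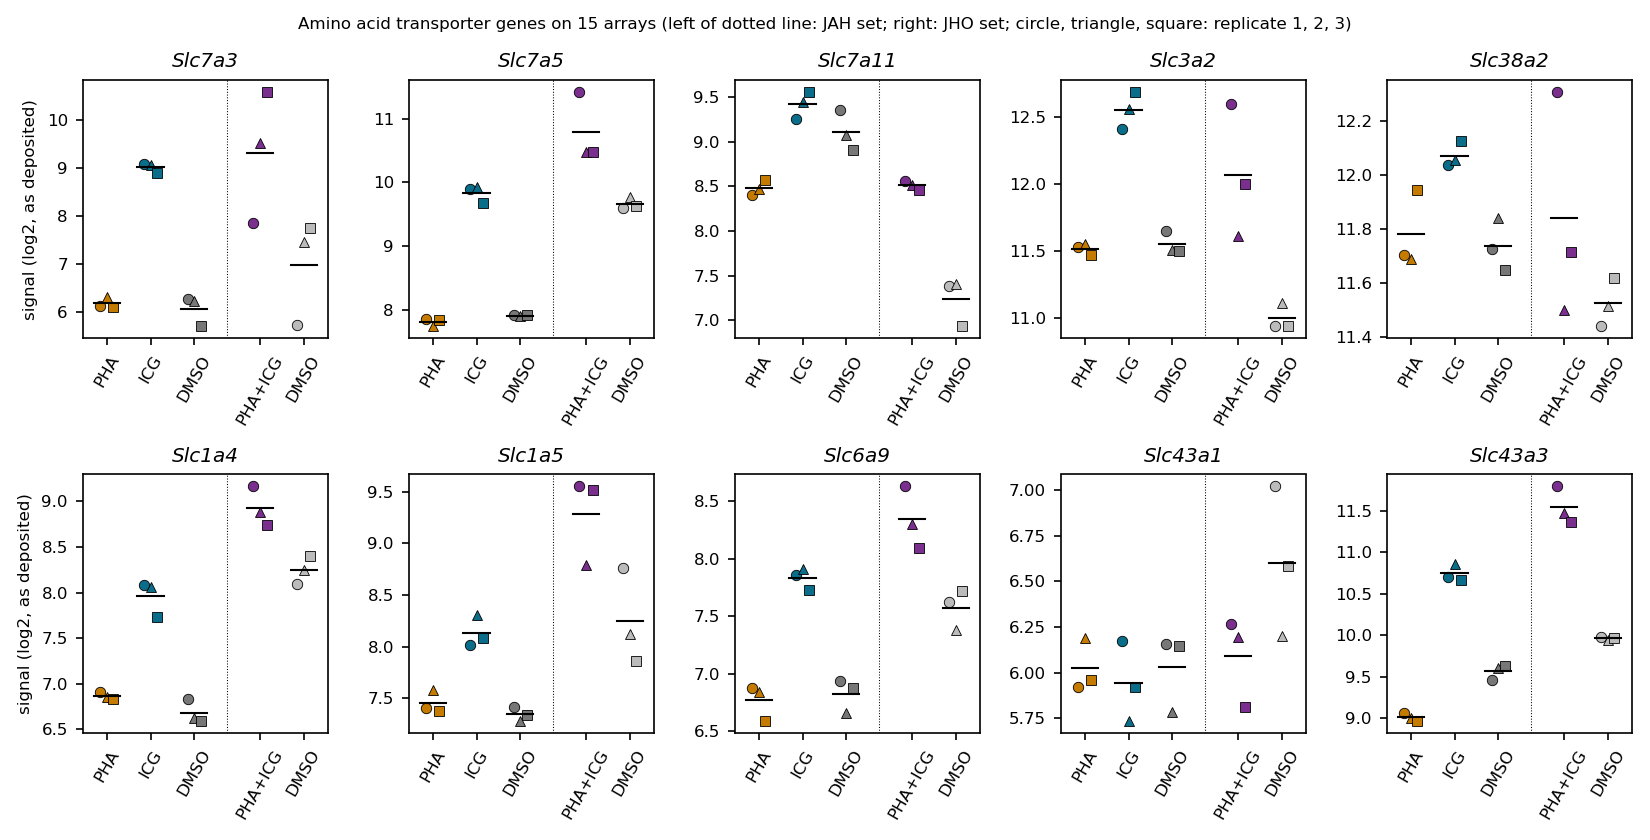
Signal of each of the 10 transporter genes (y axis, log2 as deposited) on every array, by treatment (x axis), with the JAH set left and the JHO set right of the dotted line; bars are group means and marker shapes are replicate numbers. For 8 genes the 3 ICG arrays lie above the 3 DMSO arrays of their set, Slc7a3 at 8.90 to 9.07 against 5.70 to 6.27, while Slc43a1 overlaps between all groups of the first set.

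ICG against DMSO of the same set asks what blocking β-catenin-driven transcription does to these genes. With ICG, 8 of the 10 transporter genes were higher than in DMSO with no overlap between the arrays, by 0.33 to 2.94 on the log2 scale. They were Slc7a3, Slc7a5, Slc43a3, Slc1a4, Slc6a9, Slc3a2, Slc1a5 and Slc38a2. The cystine exchanger gene Slc7a11 and the leucine transporter gene Slc43a1 overlapped between ICG and DMSO. No overlap of this kind, with ICG higher, held for 20.2% of all genes. The same 8 passed the threshold, at which 26.9% of all genes were called, 11.9% as higher and 15% as lower. The median fold change of the 10 was 1.01, beside 0.03 over all genes.

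Slc7a3 encodes CAT-3, a sodium-independent carrier of arginine, lysine and ornithine. It read 9.07, 9.06 and 8.90 in ICG spheres, against 6.27, 6.23 and 5.70 in DMSO spheres. The fold change was 2.94 ± 0.14, or 7.69-fold on the linear scale, and had rank 3 from the top among the 18193 genes. Every ICG array lay far above every DMSO array.

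Slc7a5 encodes LAT1, the exchanger that brings leucine and other large neutral amino acids into dividing cells. Its signal was 9.90, 9.93 and 9.67 with ICG, against 7.91, 7.90 and 7.91 with DMSO. That is a fold change of 1.93 ± 0.08 (3.80-fold), with DMSO arrays that almost coincide. Its partner Slc3a2, the CD98 heavy chain, read 12.41, 12.56 and 12.69 with ICG and 11.65, 11.51 and 11.50 with DMSO. The heavy chain was thus higher by 1.00 ± 0.08 (2.00-fold), also without overlap. The other light chain among the members, Slc7a11, read 9.26, 9.44 and 9.56 with ICG and 9.36, 9.08 and 8.91 with DMSO. One DMSO array lay above the lowest ICG array, and the difference of 0.31 ± 0.12 did not pass the threshold, although it did without DMSO replicate 1 (0.43).

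The neutral amino acid exchangers of the SLC1 family were both higher with ICG. Slc1a4 encodes ASCT1, which carries alanine, serine and cysteine, and read 8.09, 8.07 and 7.73 with ICG against 6.83, 6.62 and 6.59 with DMSO. Slc1a5 encodes ASCT2, a major glutamine transporter of proliferating cells, and read 8.01, 8.31 and 8.09 with ICG against 7.42, 7.28 and 7.34 with DMSO. Their fold changes were 1.28 ± 0.10 and 0.79 ± 0.09. All 3 probe sets of Slc1a4 were higher, by 0.71 to 1.41, whereas the second probe set of Slc1a5 differed by 0.25 ± 0.10.

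Slc6a9 encodes GLYT1, a sodium- and chloride-dependent glycine carrier. It read 7.86, 7.91 and 7.73 with ICG against 6.93, 6.65 and 6.88 with DMSO, a fold change of 1.01 ± 0.10. Its second probe set differed less, by 0.29 ± 0.08. Slc38a2 encodes SNAT2, a sodium-coupled carrier of small neutral amino acids that adapts to amino acid shortage. It read 12.04, 12.05 and 12.13 with ICG against 11.73, 11.84 and 11.65 with DMSO, a fold change of 0.33 ± 0.08, the smallest of the 8. Its place past the threshold was lost without DMSO replicate 3 (0.29) or ICG replicate 3 (0.31), and in a fit of all 15 arrays. The other probe sets of Slc38a2 differed by 0.17 ± 0.10, with overlap, and by 0.28 ± 0.10, and neither passed.

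The SLC43 family members parted. Slc43a3, which despite its family encodes a purine nucleobase carrier, read 10.70, 10.86 and 10.67 with ICG against 9.46, 9.60 and 9.63 with DMSO, a fold change of 1.18 ± 0.07. Slc43a1, the LAT3 carrier of branched-chain amino acids, read 6.17, 5.74 and 5.92 with ICG against 6.16, 5.79 and 6.14 with DMSO. Its difference of −0.09 ± 0.13 lay within the spread of the arrays.

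**Figure D2:**
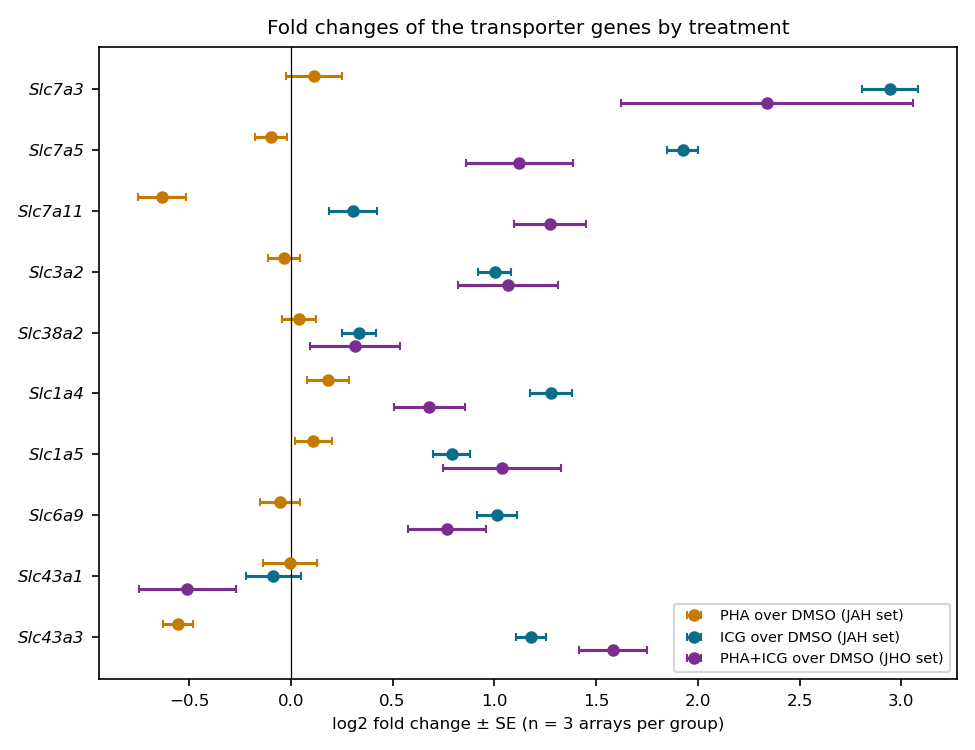
Log2 fold change ± SE of each transporter gene (y axis) for PHA and ICG over DMSO of the JAH set and PHA+ICG over DMSO of the JHO set (x axis; n = 3 arrays per group). Slc7a3 stands highest with ICG (2.94) and with PHA+ICG (2.34), and only Slc7a11 (−0.63) and Slc43a3 (−0.56) lie well below 0 with PHA.

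PHA against DMSO asks what 24 h of PHA does to the same genes. Whether MET signalling was blocked was not tested here either. Only Slc7a11 and Slc43a3 were called with PHA, both lower, and the other 8 did not pass. Of all genes 10.2% were called, 3.14% as higher and 7.07% as lower. The arrays of the groups were apart for 4 of the 10, Slc7a5, Slc7a11 and Slc43a3 below DMSO and Slc1a4 above it, as they were for 31.6% of all genes. Slc7a11 supplies cystine for glutathione synthesis. It read 8.40, 8.47 and 8.57 in PHA spheres, against 9.36, 9.08 and 8.91 in DMSO spheres. By limma its fold change was −0.63 ± 0.12 (adjusted p = 0.00797), which is 0.645 of the DMSO level. Slc43a3 read 9.06, 9.00 and 8.97 with PHA and 9.46, 9.60 and 9.63 with DMSO, and fell by 0.56 ± 0.07 (adjusted p = 0.00146). Neither gene's PHA arrays overlapped with DMSO, and both calls held with each of the 9 arrays left out in turn.

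The Slc7a11 result rests on 1 of its 2 probe sets. The second read 6.37, 6.13 and 6.14 with PHA and 6.47, 6.16 and 6.12 with DMSO, a difference of −0.04 ± 0.16. With the mean of both probe sets the fold change was −0.34 (adjusted p = 0.134), and in a fit of all 15 arrays the adjusted p was 0.0523. Slc43a3 has a single probe set.

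For the other 8 genes the PHA fold changes ranged from −0.10 (Slc7a5) to 0.18 (Slc1a4). Slc7a3 read 6.13, 6.31 and 6.11 with PHA, with 1 array just above the highest DMSO value and the others between DMSO values. The 95% interval of its fold runs from 0.875 to 1.34, that of Slc7a5 from 0.831 to 1.05 and that of Slc3a2 from 0.863 to 1.11. Changes of the size seen with ICG lie outside these intervals.

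ICG against PHA was compared directly within the first set. For 9 of the 10 genes, all but Slc43a1, the 3 ICG arrays lay above the 3 PHA arrays. ICG lay above PHA without overlap for 20.8% of all genes. The same 9 passed the threshold, where 27.1% of all genes did, 13.4% as higher and 13.7% as lower. Slc7a3 differed by 2.83 ± 0.14, Slc7a5 by 2.02 ± 0.08 and Slc43a3 by 1.74 ± 0.07. Slc7a11, which lay close to DMSO with ICG and below it with PHA, differed by 0.94 ± 0.12. Slc38a2 had the smallest of these 9 differences, 0.29 ± 0.08, and all 3 of its probe sets were higher with ICG, by 0.29 to 0.34. It fell short of the threshold without any 1 of 4 arrays, at 0.25 to 0.30. The second probe sets of Slc1a5 (0.13 ± 0.10), Slc6a9 (0.14 ± 0.08) and Slc7a11 (0.39 ± 0.16) overlapped between ICG and PHA and did not pass. Another probe set of Slc1a4 (0.60 ± 0.21) did not pass either. The result for these genes thus depends on the probe set used.

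The joint effect of both inhibitors was read from PHA+ICG against DMSO in the second set, on arrays other than those above. The members were chosen with results of these data known, so their adjusted p-values here are descriptions and not independent support. Slc43a3 and Slc7a11 rose with the combination, and 6 more genes lay above DMSO without overlap but did not pass the test without pairs. In that fit 2.02% of all genes were called, 0.478% as higher and 1.54% as lower, and 7.33% lay above DMSO without overlap. Same-numbered arrays taken as pairs, which the labels do not name, gave calls for 8 of the 10, all higher. That paired fit called 7.93% of all genes, 1.92% as higher and 6.01% as lower. Without both arrays numbered 1 the unpaired fit called 4 members, all higher, and 4.87% of all genes, 0.731% as higher and 4.14% as lower. The 4 were Slc7a3, Slc7a11, Slc1a5 and Slc43a3. Slc43a3 read 11.80, 11.48 and 11.36 in PHA+ICG spheres, against 9.98, 9.94 and 9.96 in DMSO spheres. Its fold change was 1.58 ± 0.17 (3.00-fold, adjusted p = 0.00691), or 1.47 ± 0.18 without the arrays numbered 1.

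Slc7a11 read 8.56, 8.52 and 8.46 with PHA+ICG, against 7.39, 7.40 and 6.93 with DMSO. Limma gave a fold change of 1.27 ± 0.18 (2.42-fold, adjusted p = 0.0144), and its second probe set differed by 1.64 ± 0.21 (adjusted p = 0.0122). Without the arrays numbered 1 the fold change was 1.33 ± 0.21. The call was lost without DMSO replicate 2 (1.36), DMSO replicate 3 (1.12) or PHA+ICG replicate 3 (1.30). Slc7a11 was thus higher with the combination by both of its probe sets. With PHA alone it was lower by 1 of the 2, and with ICG alone it was short of the threshold. These effects come from different sets with different DMSO levels, 7.24 ± 0.27 in the second set and 9.11 ± 0.23 in the first (SD, n = 3), so the difference between them was not tested.

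Slc7a3 had the largest SE of the members in the second set. It read 7.86, 9.51 and 10.59 with PHA+ICG and 5.74, 7.46 and 7.75 with DMSO, so the lowest treated array lay just above the highest control. Its mean difference was 2.34 ± 0.72 with an adjusted p of 0.173, or 0.000105 with the pairs. Between same-numbered arrays it was 2.12, 2.05 and 2.84. Both arrays numbered 1 were the low ones of their group, and without them the difference was 2.45 ± 0.32 (adjusted p = 0.00404).

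Slc7a5 read 11.42, 10.47 and 10.47 with PHA+ICG, against 9.59, 9.77 and 9.62 with DMSO, a fold change of 1.12 ± 0.26 (adjusted p = 0.0822, or 0.0115 with the pairs). Slc3a2 read 12.59, 11.62 and 11.998 with PHA+ICG and 10.95, 11.12 and 10.94 with DMSO, at 1.07 ± 0.25 (adjusted p = 0.0758, or 0.0123 with the pairs). In both, array 1 of the treated group stood above the others. Without the arrays numbered 1 the differences were 0.77 ± 0.19 for Slc7a5 and 0.78 ± 0.21 for Slc3a2 (adjusted p = 0.0522 and 0.0766). For the leucine exchanger and its heavy chain the groups did not overlap.

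Slc1a5 read 9.55, 8.79 and 9.52 with PHA+ICG and 8.76, 8.13 and 7.86 with DMSO, a difference of 1.04 ± 0.29. Slc1a4 read 9.17, 8.88 and 8.74 with PHA+ICG and 8.10, 8.24 and 8.40 with DMSO, a difference of 0.68 ± 0.18. The glycine carrier gene Slc6a9 read 8.63, 8.30 and 8.10 with PHA+ICG and 7.62, 7.38 and 7.72 with DMSO, a difference of 0.77 ± 0.19. None of these 3 passed without pairs (adjusted p = 0.134, 0.109 and 0.0961), and each did with them (adjusted p = 0.0123, 0.0462 and 0.0255). Without the arrays numbered 1 the differences were 1.16 ± 0.26 for Slc1a5 (adjusted p = 0.0401), 0.49 ± 0.19 for Slc1a4 and 0.65 ± 0.21 for Slc6a9.

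Slc38a2 overlapped between the groups, at 12.31, 11.50 and 11.71 with PHA+ICG and 11.44, 11.52 and 11.62 with DMSO. Its difference of 0.32 ± 0.22 was 0.041 ± 0.19 without the arrays numbered 1, and its other probe sets differed by −0.20 and 0.00. Slc43a1 read 6.27, 6.20 and 5.81 with PHA+ICG and 7.02, 6.20 and 6.58 with DMSO. It was the only member with a negative fold change here, −0.51 ± 0.24, which did not pass (adjusted p = 0.421), or −0.39 ± 0.22 without the arrays numbered 1.

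**Figure D3:**
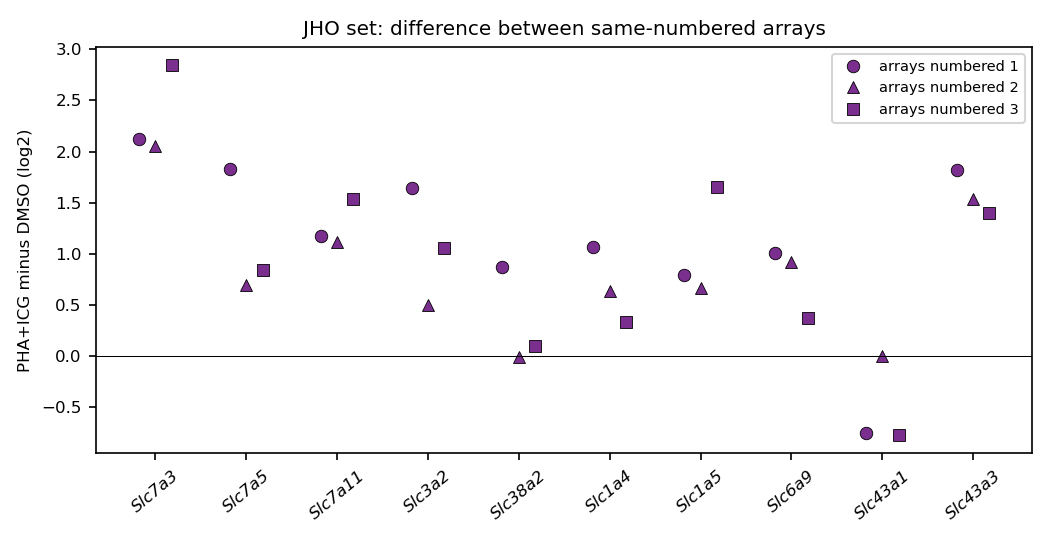
Difference between the PHA+ICG and the DMSO array of the same replicate number in the JHO set (y axis, log2) for each transporter gene (x axis). For 8 genes all 3 differences are above 0, Slc43a3 at 1.82, 1.53 and 1.40, whereas Slc38a2 has 1 below 0 and Slc43a1 has all 3 below 0.

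DMSO levels of the members differed between the sets. Each fold change above was taken within its own set, so this bears on setting those of PHA+ICG beside those of the single treatments. Slc7a5 averaged 9.66 ± 0.10 in DMSO of the second set and 7.91 ± 0.0056 in DMSO of the first, and Slc1a4 averaged 8.25 ± 0.15 and 6.68 ± 0.13 in the same order (SD, n = 3 each). The DMSO level of Slc7a5 in the second set was close to the 9.84 ± 0.14 of ICG in the first. The order ran the other way for Slc7a11, given above and, less widely, for Slc3a2. Whether both sets were normalized together is not stated, and set, culture and array processing cannot be told apart here.

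Other amino acid transporter genes were listed by family, and 54 of the 56 listed were measured. The list was written with earlier results of these data known, so its counts and adjusted p-values are descriptions. With ICG 2 of the 54 rose and 3 fell, with a median of 0.06, beside 11.9% of all genes called higher and 15% lower. Slc7a1, which encodes CAT-1, the widely expressed cationic amino acid carrier, read 10.58, 10.71 and 10.64 with ICG against 8.80, 8.74 and 8.93 with DMSO. It rose by 1.82 ± 0.08 (adjusted p = 9.59e-07), close to the fold change of Slc7a5. The glutamine carrier gene Slc38a1 (SNAT1) rose by 0.19 ± 0.05 (adjusted p = 0.0292), a call lost without any 1 of 5 arrays and with the mean over its probe sets (0.063). Slc7a8, the LAT2 light chain that also pairs with SLC3A2, read 8.55, 8.34 and 8.31 with ICG against 8.84, 9.06 and 8.93 with DMSO, and fell by 0.54 ± 0.08 (adjusted p = 0.000822). The SLC36 family genes Slc36a1 and Slc36a4 fell by 0.24 ± 0.06 and 0.18 ± 0.06. The Slc36a4 call was lost under quantile normalization and without any 1 of 8 arrays. Of the SLC3A2 light chain genes with ICG, Slc7a5 was thus higher and Slc7a8 lower, while Slc7a11, Slc7a6 (−0.26 ± 0.10), Slc7a7 (0.081 ± 0.06) and Slc7a10 (0.11 ± 0.15) were not called.

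With PHA 8 of these 54 genes fell and 0 rose, beside 7.07% of all genes called lower and a list median of 0.05. The cationic carrier gene Slc7a2 read 9.54, 9.51 and 9.21 with PHA against 10.07, 10.04 and 10.19 with DMSO, and fell by 0.68 ± 0.09 (adjusted p = 0.0016). Slc7a8 read 8.34, 8.30 and 8.30 with PHA and fell by 0.63 ± 0.08 (adjusted p = 0.00126). Slc7a7, the y+LAT1 light chain that exports cationic amino acids, fell by 0.49 ± 0.06 (adjusted p = 0.0012), and Slc7a1 fell by 0.44 ± 0.08 (adjusted p = 0.00729). These 4 calls held with each array left out, although that of Slc7a1 was lost with the mean over its probe sets (−0.33). The other 4 genes, Slc6a6, Slc36a4, Slc38a1 and Slc43a2, were each no longer called without any 1 of 4 to 8 arrays, and in the fit of all 15 arrays none of the 8 was called. Slc7a1 and Slc7a2 were higher with ICG than with PHA by 2.26 ± 0.08 and 0.78 ± 0.09 (adjusted p = 2.42e-07 and 0.000185).

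In the second set 1 of the 54 rose with PHA+ICG and 0 fell, beside 0.478% of all genes called higher and 1.54% lower. The 1 was again Slc7a1. It read 11.29, 11.08 and 11.07 with PHA+ICG, against 9.65, 10.17 and 10.14 with DMSO, a fold change of 1.16 ± 0.19 (adjusted p = 0.0237). The call was lost without DMSO replicate 2 or 3 and without PHA+ICG replicate 2 or 3. Slc7a8 read 5.79, 5.19 and 5.62 with PHA+ICG and 6.65, 6.11 and 5.76 with DMSO, groups that overlapped.

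**Figure D4:**
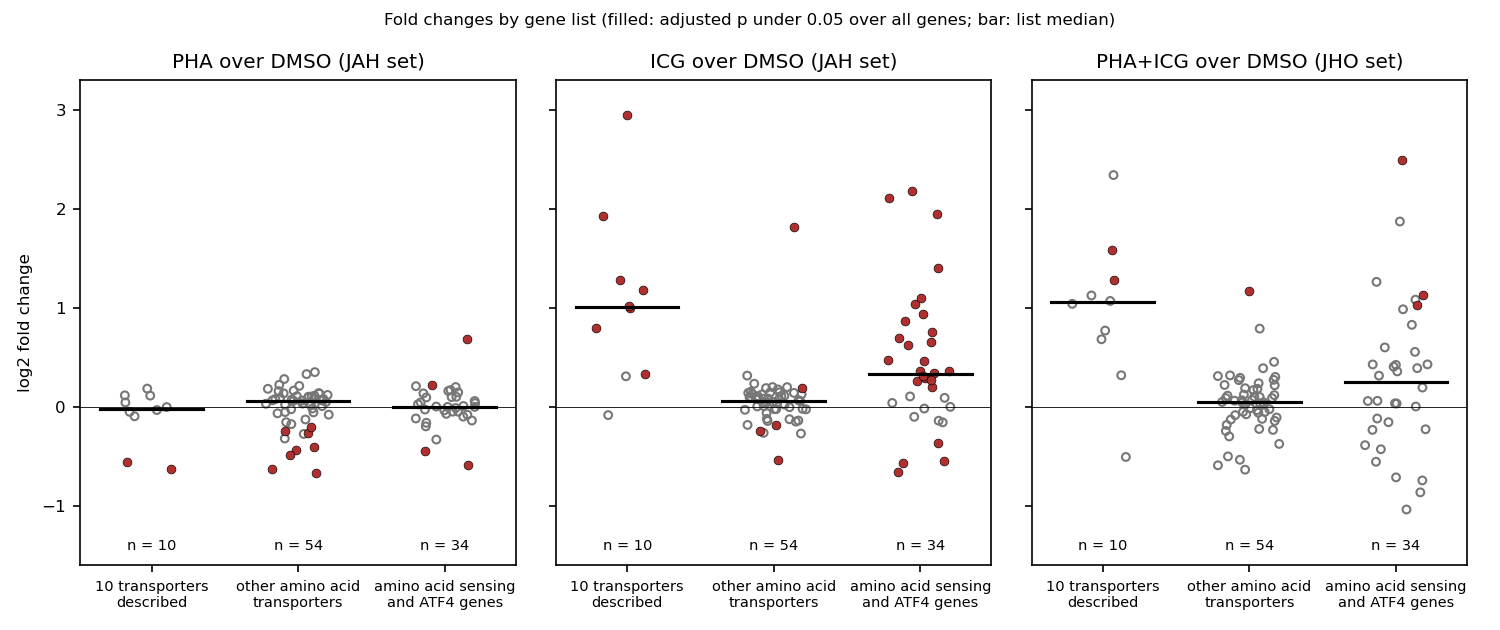
Log2 fold changes (y axis) of the 10 transporters described, 54 other amino acid transporter genes and 34 amino acid sensing and ATF4 genes (x axis) for each treatment over DMSO of its set; filled points had an adjusted p under 0.05 over all genes and bars are list medians. With ICG the medians are 1.01, 0.06 and 0.33, and the 1 high point among the other transporters is Slc7a1 (1.82).

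Genes of amino acid sensing and of the ATF4 branch were set beside the transporters. They too were chosen with earlier results of these data known, so their counts and adjusted p-values are descriptions and not independent support. Of 34, ICG raised 22 and lowered 4, with a median of 0.33, where 11.9% of all genes were called higher and 15% lower. The asparagine synthetase gene Asns rose by 2.18 ± 0.08, the pseudokinase gene Trib3 by 2.10 ± 0.08, the glutathione-degrading enzyme gene Chac1 by 1.95 ± 0.09 and Atf5 by 1.40 ± 0.08 (adjusted p from 7.48e-07 to 4.77e-06). Atf4 itself read 12.49, 12.57 and 12.65 with ICG against 11.95, 11.87 and 11.79 with DMSO. Among the falls were Sesn3 (−0.66 ± 0.06), the eIF2α kinase gene Eif2ak3 (−0.57 ± 0.09), Castor2 (−0.55 ± 0.10), a paralog of the arginine sensor, and the GATOR1 subunit gene Nprl2 (−0.37 ± 0.07). The eIF2α kinase gene Eif2ak1 and Ddit3 rose as well, but other probe sets of both differed in sign. With the mean over probe sets Eif2ak3 was at −0.17 (adjusted p = 0.0955) and no longer called.

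With PHA 2 of the 34 rose and 2 fell, where 3.14% of all genes were called higher and 7.07% lower. The sestrin genes Sesn3 and Sesn1 rose by 0.68 ± 0.06 and 0.22 ± 0.06 (adjusted p = 0.000227 and 0.0455). Chac1 fell by 0.59 ± 0.09 and Myc by 0.44 ± 0.10 (adjusted p = 0.00342 and 0.0199). The call of Sesn1 was lost without any 1 of the 9 arrays, and that of Myc without any 1 of 4. Sesn3 was therefore called higher with PHA and lower with ICG, and the direct difference of ICG minus PHA was −1.34 ± 0.06 (adjusted p = 1.51e-06). With PHA+ICG 3 rose without pairs, Trib3 by 2.49 ± 0.40, Sesn2 by 1.12 ± 0.19 and the stress regulator gene Nupr1 by 1.03 ± 0.18 (adjusted p = 0.0225, 0.0252 and 0.0324). With the pairs 8 rose and 4 fell, in the fit that called 7.93% of all genes against 2.02% without pairs. Without pairs, Trib3, Sesn2 and Nupr1 lost their calls without any 1 of 3, 4 and 5 arrays.

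The genes most like each member were taken as those with the highest Pearson correlation over the 15 arrays, after the DMSO mean of the own set was subtracted. This is a description over arrays that share their controls. For Slc7a5 they were the serine synthesis genes Psph (0.97) and Psat1 (0.97) and the mitochondrial folate enzyme gene Mthfd2 (0.97). Slc1a4 was most like Niban1, Psph and Slc7a5 (0.97, 0.96 and 0.96). Slc3a2 was most like Arl14ep, Hint1 and the leucine sensor gene Sesn2 (0.97 each). Slc1a5 was most like Yars, a tyrosyl-tRNA synthetase gene (0.96), Cr1l and Cxadr (both 0.94), and Slc7a3 like Ints6, Map1b and Gata6 (0.93 to 0.95). Slc6a9 followed Vopp1, Ptpn12 and Nme2 (0.96 to 0.97), Slc43a3 followed Bbs12, Calcrl and Trmt61a (0.97 to 0.98), Slc7a11 followed Mcu, Fez1 and Gtf3c4 (0.95 to 0.96) and Slc38a2 followed Abhd17b, Rnd2 and Leng1 (0.92 to 0.97). Slc43a1 was most like Btn1a1, Aldh3a1 and Sftpd, at 0.87 to 0.88. Among the members themselves, Slc7a5 and Slc1a4 were the closest pair (0.96), and Slc7a11 and Slc43a1 the most opposed (−0.60).

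Markers of other cells moved in the same comparisons. The 4 with the largest changes were the mast cell and basophil receptor gene Fcer1a (−2.90 ± 0.14 with PHA), the complement gene C1qb (−2.75 ± 0.32 with ICG), the collagen gene Col3a1 (−2.49 ± 0.32 with ICG) and the adipocyte gene Fabp4 (−2.35 ± 0.28 with PHA+ICG). For the counts that follow, the shares of all genes called higher and lower were 3.14% and 7.07% with PHA and 11.9% and 15% with ICG. With PHA+ICG they were 0.478% and 1.54%. Of 11 fibroblast markers 6 fell with PHA and 10 with ICG. Their summed linear signal was 29818 to 30544 with PHA, 25631 to 29918 with ICG and 35863 to 46131 in DMSO. Of 12 leukocyte markers 3 fell with PHA and 8 with ICG, and their sum was 51199 to 55434 with PHA, 50821 to 52968 with ICG and 55733 to 62895 in DMSO. In the second set 1 fibroblast and 0 leukocyte markers passed, with fibroblast sums of 66652 to 80028 with PHA+ICG and 90652 to 105210 in DMSO. The leukocyte sums there, given above, were highest on the array numbered 1 of each group. Of the mast cell or basophil markers 5 of 6 fell with PHA and 4 with ICG, and of the basal markers 4 of 7 with PHA and 3 with ICG. Of 8 luminal markers 2 rose and 1 fell with PHA, and 2 rose and 2 fell with ICG. Of the endothelial markers 1 of 6 fell with PHA and 0 were called with ICG, and of 4 adipocyte markers 1 fell with PHA, and 1 rose and 2 fell with ICG. With PHA+ICG 1 mast cell or basophil and 1 adipocyte marker fell, and 0 luminal, basal or endothelial markers were called. The luminal sums there, given above, were low on treated arrays 2 and 3. The part of these cells in the transporter results was not tested. As a sign of RNA quality, the 3′ minus 5′ difference of the Actb control probe sets was 0.541 ± 0.056 with PHA, 0.631 ± 0.070 with ICG and 0.447 ± 0.124 in DMSO of the first set, and 0.591 ± 0.161 with PHA+ICG and 0.590 ± 0.111 in DMSO of the second (log2, SD, n = 3). Its part in the results was not tested either.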

How the data were processed

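The authors deposited log2 signals of 45101 probe sets on 15 arrays, and RMA and MAS5 are named in the submitters' processing notes, with no role given. The platform annotation gave 34945 probe sets 1 symbol, 932 several and 9160 none, and 64 controls and those without exactly 1 symbol were left out. Each gene is its probe set with the highest mean, which gave 18193 genes. Each set was fitted on its own with limma 3.58.1 in R 4.3.3 (6 residual degrees of freedom in the JAH set and 4 in the JHO set), unlike an earlier fit of all 15 arrays, because the spread differed between the sets. Tables, sequences and figures were made with Python 3.11.15, pandas 2.3.3, numpy 2.4.6 and matplotlib 3.10.9.

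The members and lists were chosen with earlier results of these data known. Named genes are all members, up to 4 called genes of each list with the highest and the lowest fold change per comparison, the 3 genes most like each member, and markers; Atf4, Ddit3 and Eif2ak1 and the markers given as examples were named after their values were seen, as were lost calls and genes set beside a member. In the JHO set same-numbered arrays correlated in their deviations from group means at 0.61, 0.36 and 0.28 and were taken as pairs, although arrays 2 and 3 also correlated across numbers (0.24 and 0.35). In the JAH set these correlations ran from −0.26 to 0.12, so no pairs were used.

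Tested on simulated independent arrays with each set's spread, 200 genes changed by 1 (log2) among 18193 were recovered in 96% of cases for PHA, 96% for ICG, 96.5% for ICG minus PHA and 28.5% for PHA+ICG. Alternatives were other samples in the fit, scaling, probe set choice, a filter on dim genes (under 5), the replicate block and leaving out each array.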

Additional observations from a re-analysis of the deposited data

How the results depend on the processing

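Of 620 values of the 10 members under other settings, 570 kept their direction and their side of the threshold, 14 lost the threshold, 20 gained it and 16 changed sign. All sign changes were of uncalled values near 0 in the first set. With PHA these were Slc43a1 with arrays centred on their median (0.010), Slc38a2 (−0.060) and Slc6a9 (0.053) with the mean over probe sets, and, with 1 array left out, Slc7a3 (−0.069 to 0.21), Slc3a2 (−0.060 to 0.015), Slc38a2 (−0.041 to 0.093), Slc6a9 (−0.14 to 0.037) and Slc43a1 (−0.13 to 0.059). Slc43a1 ran from −0.21 to 0.019 for ICG and from −0.20 to 0.023 for ICG minus PHA. Beyond the members, Slc6a6 turned to 0.031 with PHA (mean over probe sets), and with the probe set of largest interquartile range Ddit3 turned to −0.057 and Eif2ak1 to −0.19 with ICG, and Slc7a6 to 0.35 and Eif2ak1 to −0.11 for ICG minus PHA.

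In 1 fit of all 15 arrays, which shares 1 spread between sets of unequal spread, calls for PHA came to 182 genes, 1 member, 0 other transporters and 0 sensing and ATF4 genes. There the ICG calls were 1255 genes, 1 other transporter and 12 sensing and ATF4 genes, and those of ICG minus PHA were 1463 genes, 2 other transporters and 13 sensing and ATF4 genes. The PHA+ICG calls were 2413 genes, 8 members, 5 other transporters and 14 sensing and ATF4 genes. Quantile normalization gave 5 members and 5 sensing and ATF4 genes for PHA+ICG, and raised the share of higher calls to 43.8%, against 30.8%, for PHA and to 35.2%, against 23.6%, for PHA+ICG. The mean over probe sets gave 1 member and 4 other transporters for PHA and 5 sensing and ATF4 genes for PHA+ICG.

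With the replicate block PHA+ICG had 1442 genes, 8 members, 2 other transporters and 12 sensing and ATF4 genes called. The block in the first set, whose numbers do not pair arrays, gave 1202 genes and 4 other transporters for PHA and 3 other transporters for ICG. Leaving out both arrays numbered 1 of the second set, an alternative chosen after seeing the data, gave 886 genes, 4 members and 7 sensing and ATF4 genes. With each array left out, PHA had 1005 to 1790 genes, 4 to 8 other transporters and 2 to 4 sensing and ATF4 genes called, and ICG had 3 to 6 other transporters. Likewise PHA+ICG had 56 to 389 genes, 1 to 3 members, 0 to 1 other transporters and 0 to 3 sensing and ATF4 genes. The causes were not tested beyond the change of arrays or spread that each setting makes.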
